A study of Mus musculus with 12 samples.

Results

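The effector genes of group 2 innate lymphoid cells (ILC2s) described here were the 4 secreted factors *Il5*, *Il13*, *Csf2* and *Areg* and the enzyme gene *Arg1*. They were chosen by gene symbol in the authors' lists of genes that differed between tdTomato+ and tdTomato- ILC2s, and they are 5 of the 3439 genes listed there. All 5 were in the list of 2906 genes lower in tdTomato+ ILC2s, and 0 were among the 533 higher genes. *Il5* encodes the cytokine that drives the growth and survival of eosinophils. *Il13* encodes the cytokine that acts on airway epithelium and smooth muscle, *Csf2* the myeloid growth factor GM-CSF, *Areg* the epidermal growth factor (EGF) family ligand amphiregulin, and *Arg1* the enzyme that splits arginine into ornithine and urea.

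Both populations came from lungs of male fate-map mice of the genotype TIGIT-Cre-ERT2:Rosa26-LSL-tdTomato. In this line a GFP and Cre-ERT2 cassette sits in the *Tigit* gene, so that tamoxifen switches on the red protein tdTomato in cells that express the inhibitory receptor TIGIT at that time, and the cell keeps the colour later. All mice had received the protease allergen papain through the nose, together with tamoxifen, and the ILC2s were sorted on day 19 as 100 cells per library by the surface markers CD45, CD127, CD25 and ST2 without lineage markers. The tdTomato+ and tdTomato- cells therefore shared all alleles and both treatments and differed in the colour used for the sort; no genetically unmodified or papain-free library belonged to the comparison. The labels give 4 RNA-seq libraries for each population but neither the age of the mice nor whether each library is a separate mouse. Colour marks cells that had *Tigit* promoter activity during tamoxifen, and does not give their TIGIT level at the sort.

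ILC2s are tissue lymphocytes without rearranged antigen receptors. They answer epithelial alarm signals such as IL-33, IL-25 and TSLP by releasing type 2 cytokines, and in lung they are a source of IL-5 and IL-13 early in allergic inflammation. GM-CSF acts on macrophages, dendritic cells and eosinophils, amphiregulin is linked to epithelial repair, and arginase-1 supplies ornithine for polyamine synthesis. Messenger RNAs of many cytokines are short-lived, and AU-rich elements in the 3′ untranslated region (UTR) are among the sequences that mark them for decay.

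Only 1 quantity per gene was read from the deposited tables, which is the authors' average log2 CPM, the read counts of a gene relative to the size of each library, over the libraries of their fit. It covers tdTomato+ and tdTomato- cells together, so a level given here belongs to neither population alone. No values of single libraries were at hand, and the spread between replicates and the depth of each library are unknown. For this reason no test is given, an order of levels cannot be set against its error, and being listed as lower is the authors' call. In sorted pools of cells, fewer cells that express a gene and less RNA per cell cannot be told apart.

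For comparison, the table of lower genes held 13.2% of the 21951 protein-coding genes of the annotation, and the table of higher genes held 2.31%. The annotation also counts genes that ILC2s do not express. A list of genes with known roles in ILC2s can therefore exceed these shares through expression alone. The members were picked with earlier results known, so their count of 5 of 5 describes the choice as much as the genes. The lowest average in either table was 5.00 on the log2 CPM scale, or 32 CPM. A gene below this level, and a gene that did not pass the authors' comparison, are both found in neither table and cannot be told apart.

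The promoters are shown because the letters before a gene's start are what the effector genes share or do not share outside their products. RefSeq start sites on GRCm38.p6 gave a window for *Il5*, *Il13*, *Csf2* and *Areg*, and the 250 bases before each start are printed on the gene's own strand, 5′ to 3′. Capitals mark each match to a motif described further down. The windows are chr11:53720544-53720793 on the plus strand for *Il5*, chr11:53634703-53634952 on the minus strand for *Il13*, chr11:54249900-54250149 on the minus strand for *Csf2*, and chr5:91139349-91139598 on the plus strand for *Areg*.
Il5: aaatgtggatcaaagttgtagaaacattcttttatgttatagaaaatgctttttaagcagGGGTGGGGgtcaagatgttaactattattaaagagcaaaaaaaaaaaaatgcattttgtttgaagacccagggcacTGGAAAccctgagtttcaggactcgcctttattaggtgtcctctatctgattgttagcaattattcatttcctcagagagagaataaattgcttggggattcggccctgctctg
Il13: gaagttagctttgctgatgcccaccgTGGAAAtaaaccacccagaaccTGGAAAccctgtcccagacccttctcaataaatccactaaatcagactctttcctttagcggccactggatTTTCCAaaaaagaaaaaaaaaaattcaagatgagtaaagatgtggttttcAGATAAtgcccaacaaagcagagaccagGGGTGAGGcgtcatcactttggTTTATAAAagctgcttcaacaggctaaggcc
Csf2: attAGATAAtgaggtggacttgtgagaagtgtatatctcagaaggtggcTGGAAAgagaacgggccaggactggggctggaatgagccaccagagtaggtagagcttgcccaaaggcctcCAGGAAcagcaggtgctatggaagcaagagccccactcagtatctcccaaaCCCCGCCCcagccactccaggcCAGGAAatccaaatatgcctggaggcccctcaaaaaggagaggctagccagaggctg
Areg: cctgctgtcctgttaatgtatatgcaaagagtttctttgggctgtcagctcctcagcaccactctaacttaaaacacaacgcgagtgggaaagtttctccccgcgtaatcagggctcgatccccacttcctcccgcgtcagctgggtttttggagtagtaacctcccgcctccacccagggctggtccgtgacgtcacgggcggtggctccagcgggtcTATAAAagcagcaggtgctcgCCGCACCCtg

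The gene ends are shown because all 5 transcripts carried the AU-rich pentamer ATTTA in their 3′ UTR. For each gene, 1 stretch of 30 bases around its pentamers is printed 5′ to 3′ from the GRCm38 sequence and the GENCODE M21 transcript, with pentamers in capitals. Counted from the first base after the stop codon, the stretches cover bases 101 to 130 in *Il5*, 306 to 335 in *Il13*, 235 to 264 in *Csf2*, 192 to 221 in *Areg* and 262 to 291 in *Arg1*.
Il5: gctgtttccATTTAtATTTAtgtcctgtag
Il13: ttATTTAttatggttgtgtgttATTTAaat
Csf2: aaatATTTATTTATTTATTTATTTAttttt
Areg: aATTTATTTAatATTTAagtgttATTTAtt
Arg1: aaatgcaccagcATTTAaaatacacggtga

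*Arg1* (ENSMUSG00000019987, chr10:24915221-24927484 on the minus strand of GRCm38) had the highest average of the 5 genes, with a log2 CPM of 7.83, or 227 CPM. *Areg* (ENSMUSG00000029378, chr5:91139599-91148432, plus strand) was next with a log2 CPM of 7.75, or 215 CPM. These 2 genes were above 89% and 88.4% of the lower genes by CPM. *Csf2* (ENSMUSG00000018916, chr11:54247271-54249667, minus strand) had a log2 CPM of 7.01, or 129 CPM, and stood above 72.5% of the lower genes. The type 2 cytokine genes were in the middle of the lower genes on this scale, whose median was 84.1 CPM. *Il5* (ENSMUSG00000036117, chr11:53720794-53725106, plus strand) had a log2 CPM of 6.44, or 86.7 CPM. *Il13* (ENSMUSG00000020383, chr11:53631324-53634702, minus strand) had a log2 CPM of 6.27, or 77.3 CPM. Their averages exceeded those of 51.5% and 45% of the lower genes. All 5 stood clear of the lowest listed average, by 1.27 (*Il13*) to 2.83 (*Arg1*) on the log2 scale.

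CPM counts fragments without regard to transcript length, and the effector genes are short. The exons of *Csf2* cover 800 bases, those of *Il13* 1205, those of *Areg* 1215, those of *Il5* 1537 and those of *Arg1* 2228, where the median lower gene has 5194. Only 0.826% of the lower genes were shorter than *Csf2* in exonic length, and 10.7% were shorter than *Arg1*. The genes are compact in the genome too. *Il5*, *Il13* and *Csf2* have 4 exons each, *Areg* has 6 and *Arg1* has 8, against a median of 10 in the lower genes. From first to last base they span 2397 (*Csf2*) to 12264 (*Arg1*) bases, where the median lower gene spans 28647.

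**Figure D1:**
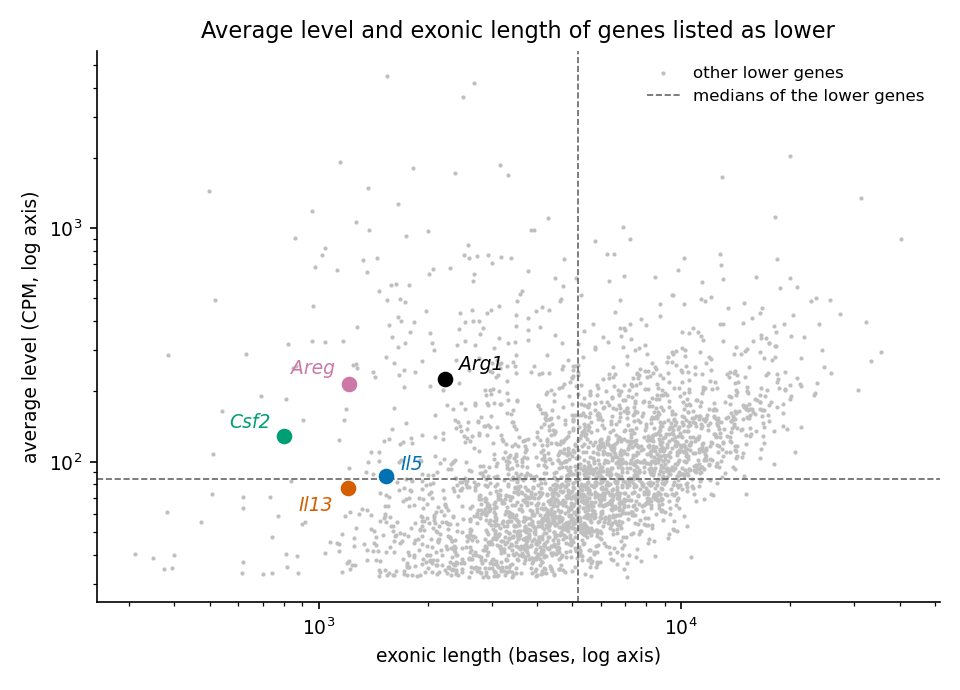
Authors' average level in CPM (vertical, log axis) against exonic length in bases (horizontal, log axis) for each gene listed as lower in tdTomato+ ILC2s, with the 5 effector genes in colour and dashed lines at the medians of the lower genes. All 5 lie left of the median length of 5194 bases, and *Il13* alone lies under the median level of 84.1 CPM.

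Levels of different genes were therefore compared as CPM per kb of exon. On this scale *Areg* was highest with 177 CPM per kb, followed by *Csf2* with 161, *Arg1* with 102, *Il13* with 64.1 and *Il5* with 56.4. The median of the 2905 lower genes with a known length was 15.4 CPM per kb, with quartiles of 11 and 25.5, so each effector gene lay above the upper quartile. *Areg* exceeded 97.4% of the lower genes, *Csf2* 97%, *Arg1* 95.1%, *Il13* 92.6% and *Il5* 91.6%. Every listed gene averaged at least 32 CPM, so a short listed gene cannot have a low CPM per kb. These shares therefore reflect the listing limit and the short exons as well as the level. The division by length moved *Arg1* from the top of the order to its middle and brought *Csf2* above it.

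Neighbours in this order were close. *Areg* was 1.1 times *Csf2*, and *Il13* was 1.14 times *Il5*, in CPM per kb. Larger steps lay between *Csf2* and *Arg1*, a ratio of 1.58, and between *Arg1* and *Il13*, a ratio of 1.59. Both depend on the length used, because *Arg1* has 2228 merged exonic bases but a longest transcript of 1477. The other members have the same length either way. With the transcript length the step from *Csf2* to *Arg1* shrinks and that from *Arg1* to *Il13* grows. *Csf2* and *Arg1* then exceeded 96.1% and 95.8% of the lower genes. From the top to the bottom of the order, *Areg* to *Il5*, the ratio was 3.14. With no value of single libraries, whether any of these steps exceeds the spread between replicates is unknown.

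Reads of *Il5* and *Csf2* may be shared with genes on the opposite strand. The antisense gene Gm12214 covers 417 of the 1537 exonic bases of *Il5*, or 27.1%, and Gm12223 covers 96 of the 800 bases of *Csf2*, or 12%. Neither antisense gene was in a deposited table. The libraries were stranded, but whether strand was used in counting is not given in the sources used here, so the levels of *Il5* and *Csf2* are uncertain to that extent.

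Among 25 other secreted products of lymphoid cells, 6 were listed as lower, 0 as higher and 19 in neither table. The share of 24% lower stands beside 13.2% of all annotated protein-coding genes. *Calca*, whose products include the neuropeptide CGRP, had the highest average of the 6 with 60.6 CPM per kb, a level between those of *Il5* and *Il13*. *Mif*, a cytokine that acts on macrophages, had 44.9 CPM per kb and the neutrophil chemokine *Cxcl2* had 42.4. The suppressive cytokine *Tgfb1* had 27.6, *Lif* 17.8 and the macrophage growth factor *Csf1* 9.48 CPM per kb. *Areg*, *Csf2* and *Il13* thus had higher averages than each of these 6, whereas *Il5* was exceeded by *Calca*. The type 2 cytokines *Il4* and *Il9*, along with *Il3*, *Il6*, *Il10* and *Tnf*, were in neither table.

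**Figure D2:**
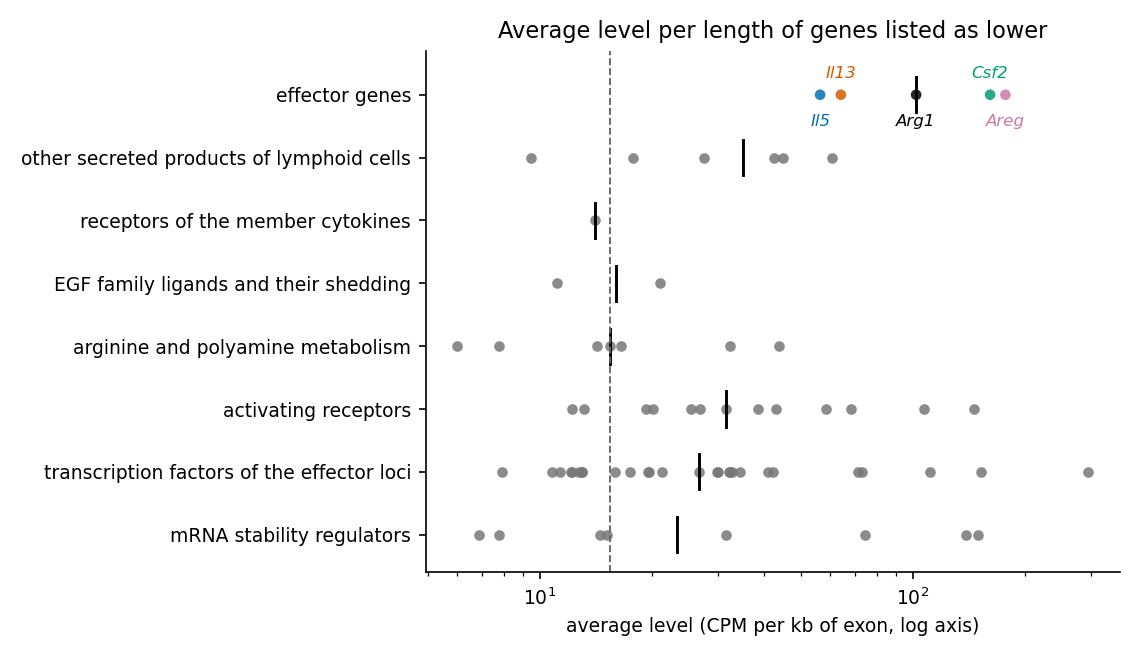
Authors' average level in CPM per kb of exon (horizontal, log axis) for the 5 effector genes and for the genes of 7 functional lists that were listed as lower in tdTomato+ ILC2s. Each point is a gene, short black bars are the median of a row, and the dashed line is the median of all lower genes (15.4 CPM per kb); the effector genes run from 56.4 (*Il5*) to 177 (*Areg*).

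The next list held 11 genes for receptors of the 4 secreted factors and for relatives of the EGF receptor. Of these, 1 was lower, 1 was higher and 9 were in neither table. The share of 9.09% lower was near the 13.2% of all annotated protein-coding genes, of which 2.31% were higher. *Il4ra*, the chain shared by the IL-4 and IL-13 receptors, was lower with an average of 14.1 CPM per kb, near the median of the lower genes. *Erbb4*, a receptor of the EGF receptor family, was listed as higher with 5.82 CPM per kb, beside a median of 4.53 for the higher genes.

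Amphiregulin is made as a membrane protein and is released by proteases. Of 10 genes for other EGF family ligands and for this shedding, 2 (20%) were lower, 1 was higher and 7 were in neither table. For all annotated protein-coding genes the shares were 13.2% lower and 2.31% higher. Both lower genes encode proteases. *Adam10* averaged 21 CPM per kb and *Adam17*, the main protease known to release amphiregulin, 11.1. *Egf* was the higher gene, with 3.42 CPM per kb. The ligand genes *Ereg*, *Hbegf*, *Btc*, *Epgn* and *Tgfa* were in neither table, which left *Areg* as the EGF family ligand of this list found among the lower genes.

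In arginine and polyamine metabolism, 7 of 22 genes (31.8%) were lower, 1 was higher and 14 were in neither table. Of all annotated protein-coding genes, 13.2% were lower and 2.31% higher. The 7 had a median of 15.4 CPM per kb, the same as all lower genes, and *Arg1* with 102 was above each of them. *Odc1*, which turns ornithine into putrescine and so acts right after arginase, was the highest of the 7 with 43.7 CPM per kb. *Oaz1*, the antizyme that brings ornithine decarboxylase to degradation, had 32.3, and *Ass1*, which takes part in remaking arginine from citrulline, had 16.5. *Oat*, which uses ornithine in another direction, had 15.4, *Sat1* and *Sms* of the polyamine pathway had 14.2 and 7.78, and the arginine carrier *Slc7a1* had 6.01. A related carrier, *Slc7a2*, was the higher gene with 3.64 CPM per kb. The mitochondrial arginase *Arg2* and the inducible nitric oxide synthase *Nos2*, which competes for arginine, were in neither table.

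Receptors through which ILC2s are activated lie upstream of the effector genes. Of 16 activating receptor genes, 13 (81.2%) were lower and 0 were higher, beside 13.2% and 2.31% of all annotated protein-coding genes. The 13 had a median of 31.6 CPM per kb. *Il1rl1*, the gene of the IL-33 receptor ST2, had 146 CPM per kb, *Il7r* 107, *Il2ra* 68.3, *Il2rg* 58.5 and the IL-25 receptor chain *Il17rb* 31.6. *Il1rl1*, *Il7r*, *Il2ra* and *Il2rg* therefore lay in the range of the effector genes. *Il1rap*, *Crlf2* and *Ptgdr2* were in neither table. ST2, CD127 and CD25, the products of *Il1rl1*, *Il7r* and *Il2ra*, were used to sort both populations.

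A list of 30 transcription factors was chosen for known roles at effector gene loci. Of these, 27 (90%) were lower and 0 were higher, beside 13.2% and 2.31% of all annotated protein-coding genes. The 27 had a median of 26.7 CPM per kb, within a range of 7.91 to 295. The AP-1 subunit *Junb* was highest with 295 CPM per kb, followed by *Id2* with 152 and by *Gata3*, the ILC2 lineage factor that acts at the *Il5* and *Il13* loci, with 111. *Ets1* had 72.9 and the AP-1 subunit *Fos* 71.2 CPM per kb. *Irf4*, *Batf* and *Stat5a* were in neither table.

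Regulators of mRNA stability were described because of the AU-rich pentamers in the 3′ UTRs. Of 12 such genes, 8 (66.7%) were lower, 0 higher and 4 in neither table, where 13.2% of all annotated protein-coding genes were lower. The ZFP36 proteins bind AU-rich elements and speed decay of the transcript. *Zfp36l1* averaged 149 CPM per kb, *Zfp36l2* 139 and *Zfp36* 74.3, levels within the range of the effector genes. The remaining 5 lower genes brought the median of the 8 to 23.3 CPM per kb. *Tia1*, *Zc3h12d*, *Rc3h1* and *Rc3h2* were in neither table.

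Summed over the 7 functional lists, 64 of 126 genes were lower and 3 higher, where 13.2% and 2.31% of all annotated protein-coding genes were. The other 59 genes of the lists were in neither table. These lists were drawn up around ILC2 biology with earlier results of these data known, so their shares are not independent of those results. As for the labelled cell type, all 8 ILC2 marker genes were listed as lower, at 40.2 to 152 CPM per kb with a median of 87.4, so each was present above the listing limit. Of 35 markers of T, B and natural killer cells, macrophages, basophils or mast cells, eosinophils and epithelial cells, 2 were lower (*Cd3g* with 21.3 CPM per kb and *Kit* with 21.7), 0 were higher and 33 were in neither table. *Arg1* is also a gene of macrophages, which the sort for lineage-negative cells with CD127, CD25 and ST2 would leave out, and 0 of the 8 macrophage markers were in either table. Their level in these libraries is not known from that, and their part in the *Arg1* average was not tested.

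**Figure D3:**
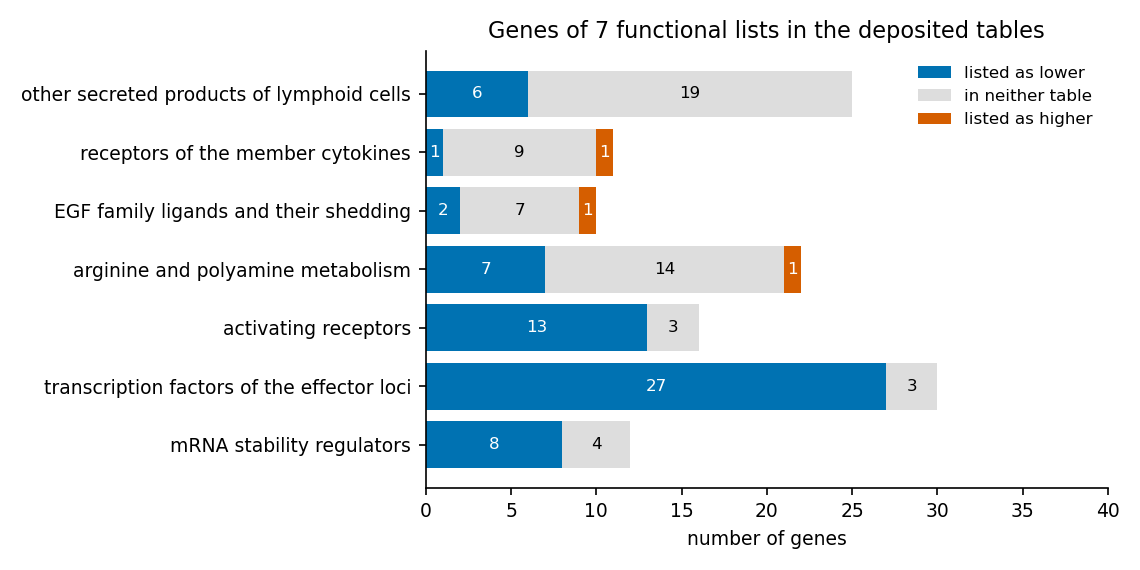
Number of genes (horizontal) of 7 functional lists that the authors listed as lower (blue) or higher (orange) in tdTomato+ ILC2s or that were in neither table (grey). Transcription factors (27 of 30) and activating receptors (13 of 16) have mostly blue bars. Receptors of the secreted factors, with relatives of the EGF receptor (1 of 11, or 9.09%), are near the 13.2% of all annotated protein-coding genes.

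*Il5*, *Il13* and *Csf2* lie on chromosome 11, and the starts of *Il5* and *Il13* are 86.1 kb apart in the type 2 cytokine cluster. Between them lies *Rad50*, a DNA repair gene whose introns are known to hold control elements of the cluster. Its start is 13.5 kb from that of *Il5*, and it was listed as lower with 22.3 CPM per kb. *Irf1*, an interferon response factor 49.2 kb on the other side of *Il5*, was lower too, with 8.77 CPM per kb. *Il4*, whose start is 16 kb from that of *Il13*, was in neither table, nor was *Kif3a* beside it. The remaining lower neighbour, *Sept8*, starts 115 kb from *Il13* and had 18.3 CPM per kb. Within 200 kb of a member, *Il13* had 3 lower genes among 11 protein-coding neighbours and *Il5* had 2 among 7.

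The other 3 effector genes had no listed neighbour within 200 kb. *Csf2* had 0 of 6, including the cytokine gene *Il3*, whose start lies 17.6 kb away. *Areg* had 0 of 2, which are its relatives *Ereg* at 65 kb and *Epgn* at 112 kb, and *Arg1* had 0 of 2, *Med23* and *Enpp3*. Counting each neighbour once, 3 of 23 (13%) were lower and 0 higher, beside 13.2% of all annotated protein-coding genes. Within 100 kb the count was 2 of 10 (20%) and within 500 kb it was 10 of 47 (21.3%), so the share depended on the window. The lower genes within 500 kb included the chemokine genes *Cxcl2* and *Cxcl3* on the *Areg* side. Most genes around the effector genes were in neither table.

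**Figure D4:**
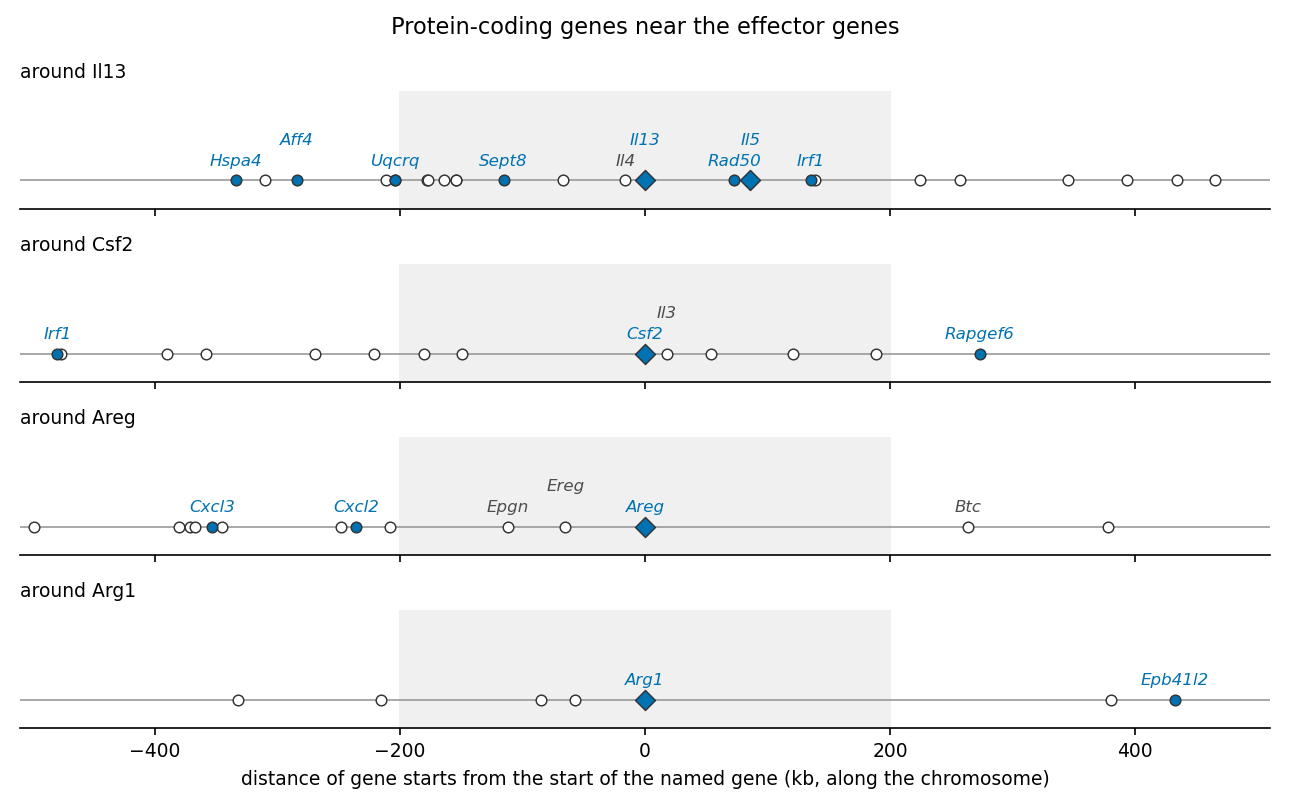
Starts of protein-coding genes by distance in kb (horizontal, along the chromosome) from the start of *Il13*, *Csf2*, *Areg* or *Arg1*. Diamonds are effector genes, filled symbols are genes listed as lower in tdTomato+ ILC2s, open circles are in neither table, and the grey band marks 200 kb to each side; filled circles within the band occur around *Il13* alone (*Rad50*, *Irf1* and *Sept8*).

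In the printed promoters, 6 motifs were searched on both strands. They were the GATA letters AGATAA or TGATAA, the AP-1 motif (TGANTCA) and the core of NFAT sites (TGGAAA). The others were the ETS motif (CCGGAA or CAGGAA), a KLF motif (CCNCNCCC) and the TATA box (TATAAA), where N is any base. Shares of all promoters below are of 32851 RefSeq windows, which also hold the first 50 bases after the start. Positions count bases from the start back to the first base of the match.

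The KLF letters were in all 4 promoters, but 49.5% of all promoters held them. The NFAT core was in 3 of 4, *Il5*, *Il13* and *Csf2*, and in 21.4% of all promoters. *Il13* held it at 224, 202 and, on the opposite strand, 131 bases before the start, *Csf2* at 201 and *Il5* at 114. GATA letters were in 2 of 4, at 81 bases in *Il13* and at 247 bases in *Csf2*, and in 18.6% of all promoters. Only forms ending in AA were searched, so other forms of the GATA motif are not in these counts. The *Il5* window holds ctatct, which reads AGATAG on the other strand and was not searched. The ETS letters were in *Csf2* alone, at 130 and 57 bases, where 41.4% of all promoters held them. A TATA box lay about where such boxes sit in *Il13*, 29 bases before the start and overlapped by a match on the other strand at 31, and in *Areg*, at 31 bases. The TATA letters were in 13.6% of all promoters. The AP-1 letters were in 0 of 4 windows and in 7.81% of all. The RefSeq start of *Csf2* lies 232 bases upstream of the GENCODE start, so its window is not the one next to the GENCODE start. The other 3 starts were the same in both annotations.

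Base composition split the 4 windows into a GC-poor and a GC-richer pair, where the *Csf2* window is the one set 232 bases upstream of the GENCODE start. GC content was 37.6% in *Il5* and 43.2% in *Il13*, both under the median of 52.4% of all promoters, and 55.2% in *Csf2* and 57.2% in *Areg*, both above it. A match of letters is a description of the sequence. Whether a factor bound there in either population was not measured in the tables used, and a missing match says only that these letters are not in this window.

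The AU-rich pentamers were counted on the transcript strand of each 3′ UTR, a description added after the tables had been seen. *Csf2* had 9 of them in a 3′ UTR of 317 bases, or 28.4 per kb, a density above that of 99.9% of the 21037 protein-coding genes with a 3′ UTR. In the printed stretch of *Csf2*, 5 pentamers follow each other with a shared A at each joint. *Areg* had 4 in 253 bases, or 15.8 per kb (above 99.6% of genes), all of them within the printed stretch. *Il5* had 7 in 1092 bases, or 6.41 per kb (above 95.9%), spread from one end of the UTR to the other. *Il13* had 3 in 741 bases, or 4.05 per kb (above 87.7%). *Arg1* had a single pentamer in 389 bases, or 2.57 per kb (above 72.9%).

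The median of all genes was 1.22 pentamers per kb, and 64.7% had at least 1, so the single pentamer of *Arg1* is common among genes. Set against the lower genes, whose median was 1.54 per kb, the order was the same, from 73.4% of lower genes below *Arg1* to 99.9% below *Csf2*. The extended nonamer TTATTTATT occurred 4 times in *Csf2*, counting overlaps, and once each in *Il13* and *Areg*, and not in *Il5* or *Arg1*. It was present in 7.56% of all genes and in 7.4% of the lower genes. The 3′ UTRs of *Csf2*, *Areg* and *Arg1* were rich in A and T (63.4%, 68.4% and 64.5%, where the median gene had 56.6%), that of *Il5* had 56.9% and that of *Il13* 48.6%. Short UTRs give coarse densities, and by count alone *Csf2* exceeded 91.6% of genes, *Il5* 86.9%, *Areg* 72.4%, *Il13* 64.8% and *Arg1* 35.3%.

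**Figure D5:**
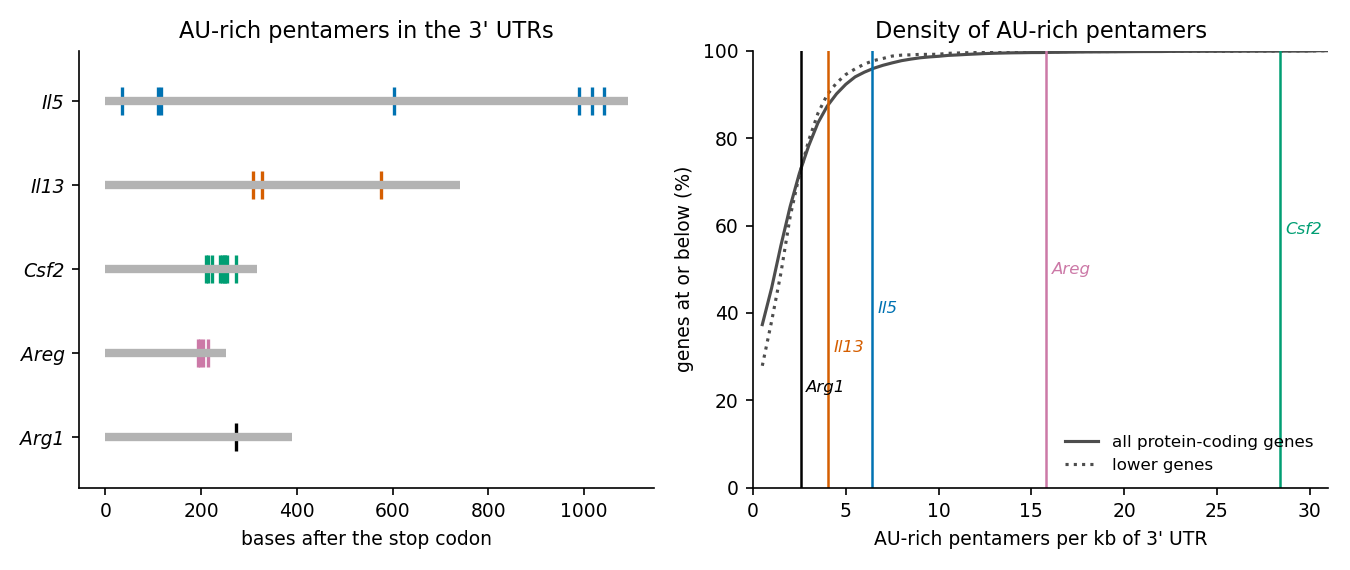
On the left, the 3′ UTR of each effector gene (grey bar, bases after the stop codon) with its AU-rich pentamers as ticks; on the right, the share of genes at or below each density of pentamers per kb of 3′ UTR, for all protein-coding genes (solid) and the lower genes (dotted), with coloured lines at the effector genes. *Csf2* (28.4 per kb) and *Areg* (15.8 per kb) lie on the flat upper end of both curves, *Arg1* (2.57 per kb) on the rising part.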

How the data were processed

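RNA-seq libraries of tdTomato- and tdTomato+ ILC2s (4 of each by the labels) were compared by the authors, who used FASTP on the reads, STAR with GRCm39 for alignment, featureCounts with an Ensembl annotation for counts per gene, and edgeR; tool versions, normalization, prior count and the libraries that entered the fit are not given in the sources used here. The 2 deposited tables list genes lower or higher in tdTomato+ ILC2s with the authors' average log2 CPM, the unit used here; CPM is 2 to that power. Their 4 further measurement columns (log2 fold change, likelihood ratio, p-value and false discovery rate) are the authors' own comparison and were not used. The number of unused columns of per-sample values is 0.

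Average CPM was divided by kb of merged exons (GENCODE M21, GRCm38, matched by Ensembl identifier; 1 lower and 2 higher genes had no match). Levels, listing, neighbours within 200 kb, promoter motifs and 3′ UTR pentamers were described without a test. The 3′ UTR is that of the longest coding transcript of a gene. The scripts (Python 3.11.15, numpy 2.4.6, pandas 2.3.3) were tested on simulated data. A planned fit with limma needed values of single libraries, and a planned comparison of member proteins needed protein sequences; neither was run. Genes named are the members, genes of the functional and marker lists, neighbours within 200 kb and the relatives *Il4*, *Il3*, *Ereg* and *Arg2*; *Cxcl3* and the antisense genes were named after their values or positions were seen. Members and lists were chosen with earlier results of these data known. Alternatives were another length, genes of both tables, a stricter level, other windows and promoters without the bases after the start; the pentamers and their comparison with the lower genes were chosen after seeing the data. ATAC-seq of the same populations was not analysed here.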

Additional observations from a re-analysis of the deposited data

How the results depend on the processing

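The 5 effector genes stayed in the table of lower genes when only genes with at least 2 times the lowest listed CPM were kept, and 48 in place of 64 genes of the functional lists did. Their median share of lower genes with a smaller average per kb was 95.1%, and it was 93% among genes at that stricter level, 95.5% among genes of both tables and 95.8% with the length of the longest transcript. For single genes this share ran from 87.7% to 92.5% for *Il5*, 89.4% to 93.4% for *Il13*, 95.6% to 97.1% for *Csf2*, 96.1% to 97.5% for *Areg* and 93% to 95.8% for *Arg1*. At each setting these shares stay tied to the listing limit and the short exons. Lower neighbours numbered 2 of 10 (20%) within 100 kb, 3 of 23 (13%) within 200 kb and 10 of 47 (21.3%) within 500 kb; the cause was not tested. The 12 pairs of a promoter and a motif were as many with and without the bases after the start. No paired analysis was possible because single libraries have no values in the deposited tables, and for the same reason leaving out a replicate and the fit with limma were not run. The comparison of member proteins was not run either, since no protein sequences were used here. The unknown depth of the libraries limits every level given.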
